A study of Mus musculus with 4 samples.

Results

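The cells described here are tumour cells in which Pde1c, Lhx1, Miat, Dpysl4 and Sstr2 transcripts were found while transcripts of mitosis, of early neuronal differentiation and of synapses were scarce. A cell was a member if it had at least 500 unique molecular identifiers (UMIs, each marking 1 captured transcript), at least 200 detected genes and at most 10% mitochondrial UMIs, and at least 2 UMIs summed over Pde1c, Abca4, Sstr2, Miat, Lhx1 and Dpysl4. It also had to have at most 1 UMI over 9 mitotic genes (Mki67, Top2a, Cenpf, Cenpe, Ube2c, Prc1, Tpx2, Hmmr and Aspm), at most 2 over 5 early neuronal genes (Neurod1, Neurod2, Cntn2, Dpysl3 and Nhlh1) and at most 1 over 6 synaptic genes (Grin2b, Gria2, Snap25, Syt1, Meg3 and Rbfox3). Of 6734 deposited barcodes, 2288 passed the first 3 limits and are called filtered cells, and 213 of these were members. The members were thus chosen by measured values of these 26 genes, so the levels of those genes are given as a description with no test.

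The cells came from 4 medulloblastomas of untreated mice at postnatal day 16, 1 Drop-seq library per tumour. All 4 mice carried hGFAP-Cre, Prkaa1fl/fl, Prkaa2fl/fl and SmoM2, so there was 1 group and no comparison of genotypes was made here. The human GFAP promoter drives the recombinase in neural stem and progenitor cells of the brain, which deletes the 2 kinase genes and switches on the activated Smoothened allele in the same cells. Prkaa1 and Prkaa2 encode the alternative catalytic subunits of the energy sensor AMPK (AMP-activated protein kinase), and members held 3 UMIs of each, too few to follow the deletion cell by cell.

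In the developing cerebellum, granule neuron progenitors divide in response to Sonic hedgehog (SHH), which relieves the inhibition of Smoothened and keeps cyclin D and Mycn levels high. They then leave the cell cycle, turn on Neurod1 and microtubule genes, migrate inward and build synapses. A medulloblastoma driven by Smoothened holds cells along this whole path. Pde1c encodes a phosphodiesterase that is switched on by calcium and calmodulin and breaks down cyclic AMP and cyclic GMP. Sstr2 encodes an inhibitory G protein-coupled receptor for somatostatin, Lhx1 a LIM homeodomain transcription factor known for its role in Purkinje and other neurons, Miat a long non-coding RNA of the nucleus, Dpysl4 a member of the collapsin response mediator family that acts in axon growth, and Abca4 a lipid transporter best known from photoreceptors.

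The sequences just upstream of the start sites of Sstr2 and Lhx1 are shown because both hold the letters TGACGTC, the core of the element that binds the cyclic AMP response factor CREB. RefSeq windows of 250 bases before a start (GRCm38.p6) were at hand for 5 of the 6 genes, with 3 starts for Pde1c. After these windows had been seen, 3 motifs were searched on both strands, namely TGACGTC, the E-box CAGCTG and the Gli motif GACCACCCA. TGACGTC stood in the windows of Sstr2 and Lhx1, CAGCTG in 1 of the 3 windows of Pde1c, and GACCACCCA in none of the 7 windows. Over all genes with a window, 3.16% of 27025 held TGACGTC, 14.7% held CAGCTG and 0.255% held GACCACCCA. In Sstr2 the match on one strand overlaps that on the other, which gives the 8 letters TGACGTCA. The windows lie at chr11:113619077-113619326 on the plus strand and chr11:84525535-84525784 on the minus strand, written 5′ to 3′ with the motif in capitals. A match describes these letters and shows no binding.
Sstr2: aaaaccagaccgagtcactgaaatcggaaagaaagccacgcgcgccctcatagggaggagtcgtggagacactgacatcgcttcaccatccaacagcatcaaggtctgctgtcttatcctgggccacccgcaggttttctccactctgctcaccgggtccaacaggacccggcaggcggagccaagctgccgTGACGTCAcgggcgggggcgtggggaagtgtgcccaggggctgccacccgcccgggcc
Lhx1: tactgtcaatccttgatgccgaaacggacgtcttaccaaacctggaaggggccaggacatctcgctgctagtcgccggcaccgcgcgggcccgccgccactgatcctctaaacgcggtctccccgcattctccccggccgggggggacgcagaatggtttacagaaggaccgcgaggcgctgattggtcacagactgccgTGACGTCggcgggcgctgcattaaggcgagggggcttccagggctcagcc

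Pde1c and Lhx1 supplied most of the marker UMIs of the members, and Abca4 supplied none. Pde1c (chromosome 6, 56069804 to 56569103, minus strand, GENCODE M21) had 261 UMIs in 147 of the 213 members (69.0%). Lhx1 (chromosome 11, 84518284 to 84525535, minus strand) had 190 UMIs in 53.1% of members, and Miat (chromosome 5, 112213228 to 112229395, minus strand) had 128 UMIs in 42.3%. Dpysl4 (chromosome 7, 139086001 to 139102704, plus strand) was found in 29.6% of members with 86 UMIs and Sstr2 (chromosome 11, 113619342 to 113626028, plus strand) in 34 members with 38 UMIs. The cells are therefore better described by Pde1c and Lhx1 than by Sstr2.

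Abca4 (chromosome 3, 122044443 to 122180123, plus strand) had 0 UMIs in the 213 members. All 39 Abca4 UMIs of the filtered cells lay in 1 barcode of tumour 1, in which they made up 5.34% of 731 UMIs. That barcode had 3 early neuronal and 2 synaptic UMIs and so was no member. Outside the filtered cells, 3 further barcodes of tumour 1 held 1, 1 and 3 Abca4 UMIs, and tumours 2, 3 and 4 held none.

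Summed over a tumour's members and scaled to the same total in every tumour (counts per 1000000 UMIs, CPM), Pde1c stood at 3278, 2381, 1094 and 1197 CPM in tumours 1 to 4. It was thus higher in tumours 1 and 2 than in tumours 3 and 4. Lhx1 was at 693, 1190, 1291 and 933 CPM and was lowest in tumour 1. Miat was at 1513, 850, 678 and 561 CPM, again highest in tumour 1. Dpysl4 was at 315, 0, 503 and 479 CPM, with no UMI among the 8 members of tumour 2, and Sstr2 at 189, 170, 153 and 223 CPM. These sums rest on 15865, 5880, 45704 and 121129 UMIs, so that 1 UMI was worth 63.0 CPM in tumour 1, 170 in tumour 2, 21.9 in tumour 3 and 8.26 in tumour 4.

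Most members carried more than 1 of the genes. Of the 213, 46 had UMIs of a single gene, 112 of 2 genes, 44 of 3, 10 of 4 and 1 of 5. The gate was met by the smallest margin in 89 members, which had exactly 2 marker UMIs, while 57 had 3 and 15 had at least 7, up to 11. Just outside it, 123 cells met every other limit with 1 marker UMI and 186 with 0. With every filtered cell reduced at random to 500 UMIs, Pde1c and Miat were found together in 202 cells, 1.48 times the number that their separate shares in each tumour would give. The ratio was 1.31 for Pde1c with Lhx1 (201 cells), 1.23 for Miat with Lhx1 (142 cells) and 0.993 for Miat with Dpysl4 (34 cells). These ratios are descriptive, and cells of all states entered them.

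The share of cells with a marker UMI was also taken in cells of other types. In 25 filtered cells with at least 4 genes that mark microglia, endothelium, mural cells or fibroblasts, none had a marker UMI after thinning to 500 UMIs, which at 95% allows a share of up to 13.7% (exact Clopper-Pearson interval, counting error only). The share among the other filtered cells was 56.9% (54.8 to 58.9%). Before thinning, 5 of the 25 cells (20%) and 72.7% of the others had a marker UMI, and the summed level was 297 CPM in the former and 2079 in the latter, at median depths of 1661 and 870 UMIs. The part of free RNA in the marker UMIs was not tested.

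The share of members was 5.95% of 370 filtered cells in tumour 1, 2.75% of 291 in tumour 2, 9.63% of 561 in tumour 3 and 12.1% of 1066 in tumour 4, with a mean of 7.61% ± 4.11 (SD, n = 4). The exact 95% intervals were 3.76 to 8.86%, 1.19 to 5.34%, 7.31 to 12.4% and 10.2 to 14.2%, so that tumour 2 did not overlap tumours 3 and 4, nor tumour 1 tumour 4. They cover counting error only, with 1 library per tumour. After thinning every cell to 500 UMIs before the rule was applied, the shares were 11.6%, 4.47%, 10.5% and 11.4%. Tumour 2 remained the lowest, and tumour 1 came level with tumours 3 and 4.

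**Figure D1:**
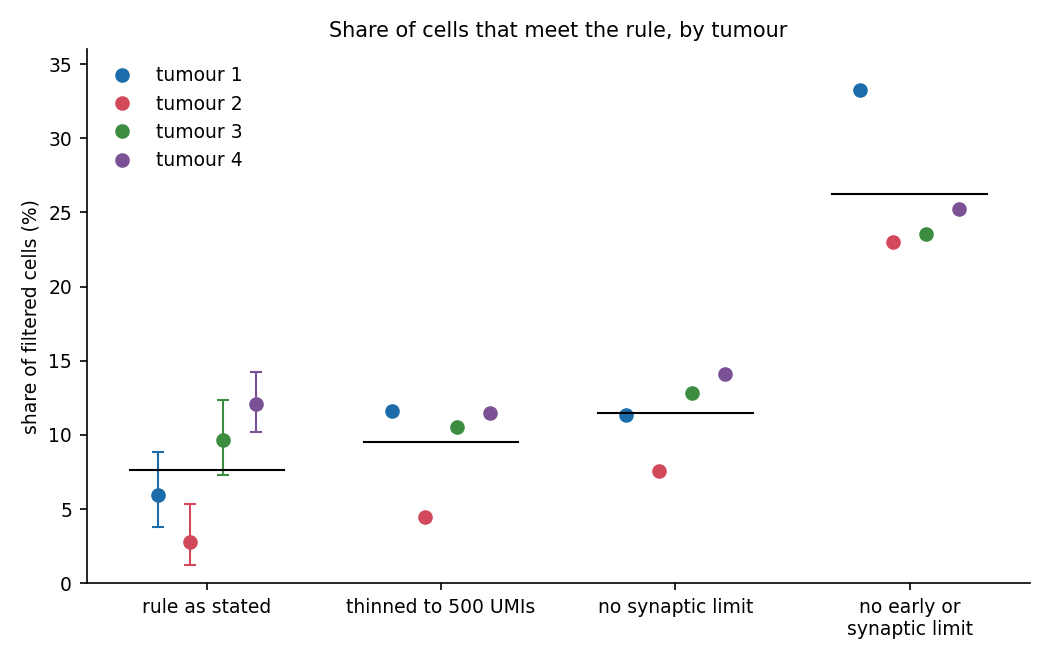
Share of filtered cells that met the rule (y axis, percent) in tumours 1 to 4, under the rule as stated, with each cell thinned to 500 UMIs, without the synaptic limit, and without the early neuronal and synaptic limits. Points are tumours, black lines are means over tumours, and bars on the first group are exact 95% intervals; the mean went from 7.61% under the rule to 26.3% without the last 2 limits.

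The limits of the rule removed different parts of the cells in each tumour. Cells with at least 2 marker UMIs were more frequent in tumours 1 and 2, at 63.2% and 61.2% of filtered cells against 37.8% and 49.5% in tumours 3 and 4. Of these cells, the synaptic limit removed 65.4% and 64.0% in tumours 1 and 2 and 27.8% and 25.6% in tumours 3 and 4. The early neuronal limit removed 47.4%, 48.9%, 36.3% and 35.0% of them, and the mitotic limit 47.4%, 62.4%, 37.7% and 49.1%. Many cells were over more than 1 limit, and the synaptic limit alone removed 20, 14, 18 and 21 cells. Tumours 1 and 2 also stood apart in their mitochondrial share, which had a median of 7.49% and 8.34% in members there against 2.71% and 1.89% in tumours 3 and 4. The part of this gap in the shares was not tested. With no synaptic limit the shares were 11.4%, 7.56%, 12.8% and 14.1%, and with neither the early neuronal nor the synaptic limit 33.2%, 23.0%, 23.5% and 25.2%.

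The genes of the rule were not limited to the cells that the rule keeps. With no marker limit, the filtered cells were split by the other 3 limits into cells within all limits (522), cells with at least 3 mitotic UMIs and within the other limits (545), over the early neuronal limit only (208), over the synaptic limit only (150) and over both neuronal limits (318). The remaining filtered cells, with 2 mitotic UMIs or over the mitotic and another limit, entered no state. Summed over the 6 genes, the mean level over tumours was 1788 CPM ± 627 within all limits, 1908 ± 823 in the mitotic state, 3830 ± 1514 in the early neuronal state, 2534 ± 952 in the synaptic state and 2958 ± 1040 with both (SD, n = 4 each). The early neuronal state had the higher sum in 4 of 4 tumours, at 5924 against 2616 CPM in tumour 1, 3960 against 1125 in tumour 2, 2765 against 1562 in tumour 3 and 2671 against 1850 in tumour 4. The mitotic state was higher than the cells within limits in tumour 2 only.

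Each gene had its own pattern over these states. Pde1c was at 739 CPM ± 431 within limits, 600 ± 309 in the mitotic and 1301 ± 590 in the early neuronal state. Lhx1 was at 418 CPM ± 97.7, 585 ± 234 and 1020 ± 160 in the same order, and each tumour's early neuronal value lay above each value within limits. Miat was at 379 CPM ± 205 within limits and 1058 ± 799 in the early neuronal state. Dpysl4 did not share that direction, with 172 CPM ± 105 within limits and 145 ± 47.3 in the early neuronal state. Sstr2 was at 80.7 CPM ± 26.8 within limits and 306 ± 257 in the early neuronal state, where 8 UMIs of tumour 2 (689 CPM) raised the mean most. It was higher there in every tumour, at 214, 689, 141 and 182 CPM against 77.7, 66.2, 59.5 and 119 in tumours 1 to 4, on few UMIs.

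**Figure D2:**
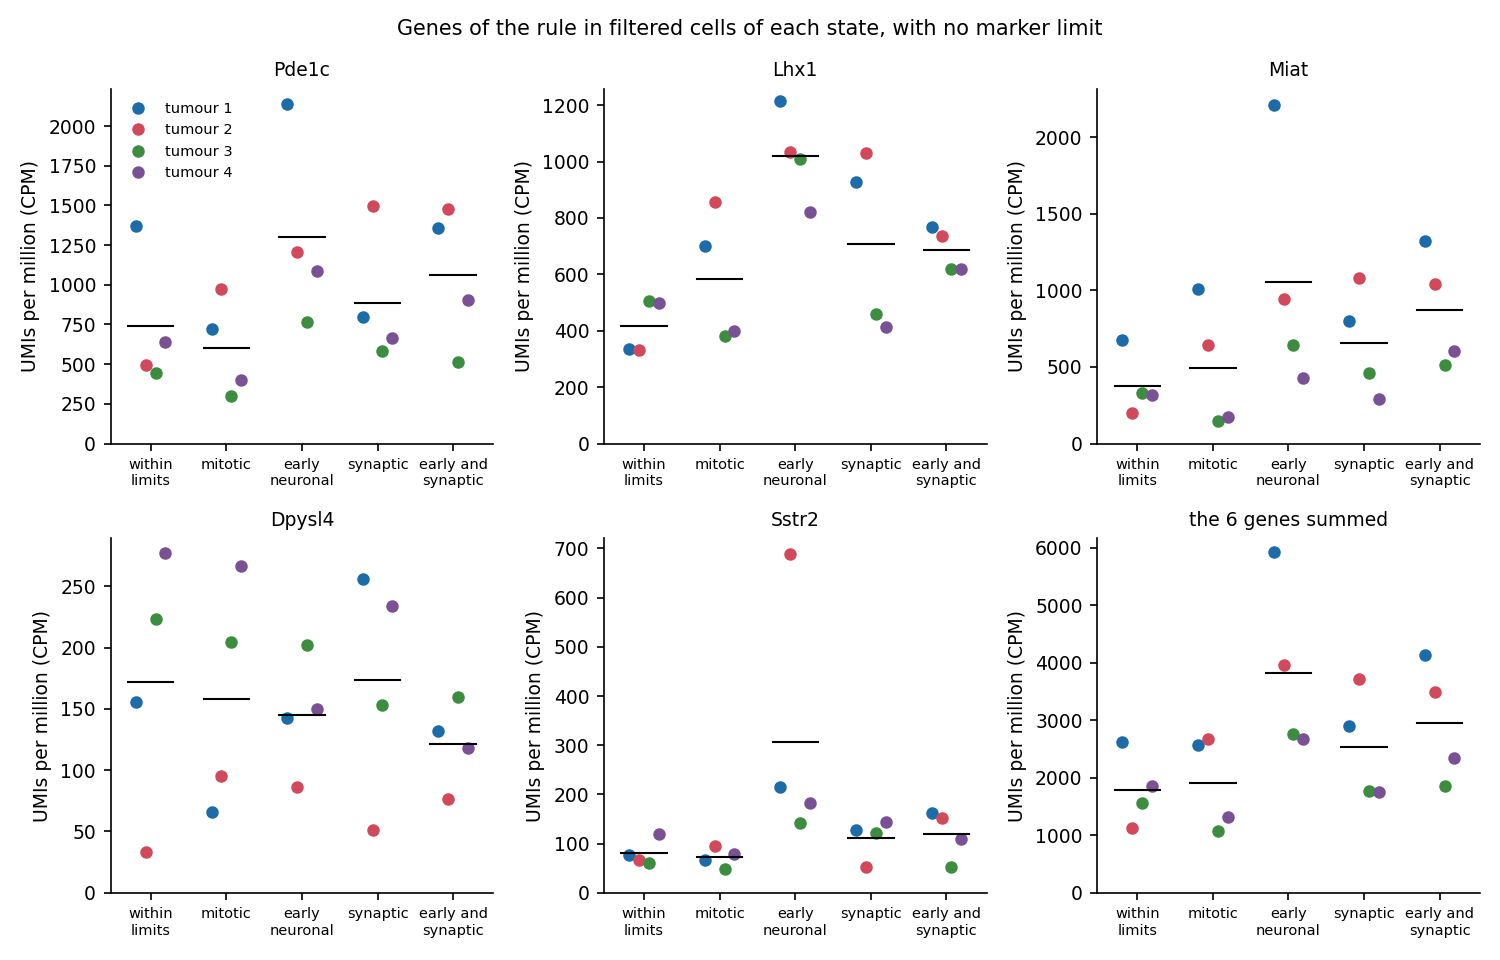
Level of each gene of the rule other than Abca4, and of the 6 genes summed (y axes, CPM), in the filtered cells of 5 states set by the mitotic, early neuronal and synaptic limits, with no limit on the markers; cells over the mitotic and another limit are not shown. Points are tumours and black lines their means; the summed level was 1788 CPM within limits and 3830 CPM in the early neuronal state.

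The same states were compared in barcodes that the rule had not used. These were 4363 barcodes with at least 200 genes that failed the depth or the mitochondrial limit, most of them from tumours 1 and 2 (928 and 2477, against 382 and 576). Sums per tumour and state were compared with edgeR's quasi-likelihood test with the tumour as a block, over all genes that passed a filter on low counts. Pde1c, Lhx1 and Miat passed the filter in the early neuronal comparison, and these with Dpysl4 and Sstr2 in the mitotic one. None of those tested was called at an adjusted p of 0.05, while 7.18% of 1240 genes (early neuronal) and 3.62% of 2181 (mitotic) were called. Miat was 0.59 ± 0.21 (log2, SE) higher in the early neuronal state in 4 of 4 tumours, with an edgeR adjusted p of 0.0907 and 95% limits of 0.17 and 1.002. Pde1c differed by 0.36 ± 0.21 (edgeR adjusted p = 0.314) and Lhx1 by 0.28 ± 0.21 (edgeR adjusted p = 0.473), each higher in 3 of 4 tumours. In the mitotic state minus the barcodes within limits, Pde1c differed by -0.11 with limits of -0.46 and 0.25, Lhx1 by -0.10 with limits of -0.49 and 0.28, and Miat by -0.33 with limits of -0.74 and 0.08. After TMM scaling Pde1c and Miat lay lower in the mitotic state in 4 of 4 tumours, while before scaling Pde1c was higher there in tumours 2 and 3. Dpysl4 differed by 0.28 with limits of -0.36 and 0.92, and Sstr2 by -0.16 with limits of -0.83 and 0.52. Leaving out tumour 1 took the count of called genes from 89 to 3 in the early neuronal and from 79 to 19 in the mitotic comparison. Leaving out tumour 4 took them to 39 and 46, and leaving out tumour 3 took the first to 13.

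For the rest of the transcriptome, the members were set beside 3 classes of filtered cells in the same tumours. These were 153 marker-negative, 306 mitotic and 87 early neuronal cells. Marker-negative cells had none of the 6 genes, were within the same limits and had fewer than 2 genes of each microglial, endothelial, mural or oligodendrocyte list. Members were not filtered by those lists. Mitotic cells had at least 3 mitotic UMIs and at most 1 marker UMI, within the early neuronal and synaptic limits. Early neuronal cells had at least 3 early neuronal UMIs and at most 1 marker UMI, within the mitotic and synaptic limits. The early neuronal class held 4 cells in tumour 1 and 5 in tumour 2, and its sum there was 2329 and 3146 UMIs. Because the rule and the proposal of these cells used expression in these same cells, the log2 folds over all genes are given with their SE and no p-value. A gene was counted where its log2 fold reached 1 in size and its scaled level differed in the same direction in 4 of 4 tumours. Scaling was by TMM, which corrects each sum by a factor estimated from its genes, while the CPM values in the text carry no such factor. In tumour 2 the factor was 1.73 for members and 1.03 for mitotic cells, and in tumour 1 it was 0.818 for members and 2.11 for early neuronal cells, so a direction can differ between CPM and fold there. A further comparison used the barcodes outside the filters, 843 with at least 1 marker UMI (marker-positive) against the matching classes there. These classes were chosen by the UMIs of the same rule genes. The comparison thus shares no barcode with the members but is not independent of the rule.

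Against mitotic cells, the members had far fewer transcripts of cell division genes, also beyond the 9 of the rule. In all, 193 genes were counted lower (3.96% of 4875 fitted) and 35 higher (0.718%). By library size alone, with no TMM factor, 141 were counted lower and 78 higher, and the median over all genes moved from -0.03 to 0.07. Without tumour 1 the count of 228 was 343 and without tumour 2 it was 370, with the same direction then required in the 3 tumours left, a looser criterion that also holds for the other counts with tumours left out. Mitotic UMIs chose both classes, and genes low in members were fitted through their UMIs in mitotic cells, so the values of a further list of 20 mitotic genes are a description and no count of them is given. Kif4, a chromosome-bound kinesin, had 0 UMIs in members against 68 in mitotic cells, and Incenp, the scaffold of the chromosomal passenger complex, had 3 against 173. The cyclin gene Ccnb1 was at 1 against 87 UMIs. Summed over the list, members were at 1135, 2721, 1663 and 1428 CPM and mitotic cells at 7052, 7189, 11082 and 9682, so the ranges did not overlap.

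The barcodes outside the rule gave 4 called genes of 763 in that comparison (0.524%), and all 4 fell in the marker-positive class. Both classes there were again chosen by mitotic UMIs, which favoured lower levels of genes that go with mitosis in advance. The adjusted p-values are therefore no independent support for a difference. Incenp was 1.53 ± 0.32 lower on the log2 scale (edgeR adjusted p = 0.0264), lower in 4 of 4 tumours. Hmgb2, a DNA-bending chromatin protein, fell by 1.37 ± 0.29 (edgeR adjusted p = 0.0276). Smc2, a condensin subunit, fell by 1.16 ± 0.21 (edgeR adjusted p = 0.00906), and the histone chaperone gene Anp32e by 1.09 ± 0.24 (edgeR adjusted p = 0.0377). All 4 were lower in 4 of 4 tumours, and all 4 also lay lower in the members themselves, with log2 folds between -1.16 and -5.04, although Hmgb2 and Anp32e were higher there in 1 tumour after TMM scaling. Leaving out tumour 1 left 1 called gene, and leaving out tumour 2 gave 12.

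The genes of the SHH list did not share 1 direction between members and mitotic cells. The list summed to 4034, 5782, 4792 and 4887 CPM in members of tumours 1 to 4 and to 2895, 5065, 3994 and 4510 CPM in mitotic cells, so members were higher in 4 of 4 tumours before TMM scaling, whose factors turn the order in tumour 2. Of its 9 fitted genes 4 lay above 0 (47.7% of all genes did), with a median of -0.35, and 2 were counted lower and none higher, beside 3.96% and 0.718% of all genes. Gas1, a co-receptor for SHH, was among the lower ones (-1.56 ± 0.61). Ccnd2, the cyclin D that SHH maintains in progenitors, was at 1387, 1871, 2210 and 1692 CPM in members against 526, 1198, 1252 and 1159 CPM in mitotic cells. Its CPM was thus higher in members in 4 of 4 tumours, and without it the list's sum is lower in members in tumours 3 and 4. For Ccnd2 the fitted log2 fold was 0.61 ± 0.21, positive in 3 of 4 after TMM scaling. In members the S phase list summed to 2458, 3912, 2932 and 3203 CPM, and in mitotic cells to 2158, 3322, 3353 and 3911 CPM. This list was higher in members in tumours 1 and 2 before TMM scaling, whose factors turn the order in both. Of its 20 genes 7 lay higher in members and 13 lower, with a median of -0.29, and 3 were counted lower (3.96% of all genes were). The enzymes of nucleotide supply were among the lower ones, Tyms at -1.74 ± 0.50 and Rrm2 at -1.55 ± 0.46, both lower in 4 of 4 tumours, while the helicase subunit gene Mcm6 was at 0.39 ± 0.38. In the barcodes outside the rule no gene of either list was called, and 4 SHH genes and 1 S phase gene passed the filter there.

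Of the 35 genes counted higher than in mitotic cells, the rule for named genes picked Jhdm1d (2.23 ± 0.73), Baz2a (1.69 ± 0.69), Rcor2 (1.66 ± 0.58), Elavl4 (1.47 ± 0.46) and Ccnt2 (1.45 ± 0.65). Elavl4 encodes a neuronal RNA-binding protein and had 42 UMIs in members against 24. Outside the rule it differed by 0.54 ± 0.30, in the same direction, with an edgeR adjusted p of 0.515. Of the 18 fitted genes of the migration and cytoskeleton list 14 lay higher than in mitotic cells (47.7% of all genes did), with a median of 0.42. Of the 18, 2 were counted higher (0.718% of all genes were), and none was called outside the rule. Stmn2, which destabilises microtubules in growth cones, differed by 1.13 ± 0.29 and Dcx, which binds microtubules in migrating neurons, by 1.27 ± 0.37.

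Against early neuronal cells, the members had higher sums of the SHH and S phase lists and a lower sum of the migration and cytoskeleton list. These orders are before TMM scaling. In all, 231 genes were counted higher (8.19% of 2820 fitted) and 23 lower (0.816%), with a median log2 fold of 0.31 over all genes and 65.6% of genes above 0. The excess of higher counts has to be read with the small early neuronal sums of tumours 1 and 2, where a gene without a UMI counts as lower. In tumours 3 and 4 alone, with the same direction required in those 2 only, 318 were counted higher and 228 lower, and with all cells thinned to 500 UMIs 109 higher and 55 lower. By library size alone 143 were counted higher and 45 lower, and the median over all genes was 0.11. Without tumour 2 the count of 254 was 391 and without tumour 4 it was 137.

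The SHH list summed to 1288, 4450, 2572 and 1802 CPM in early neuronal cells, below the members of the same tumour in 4 of 4. Of its 16 genes 5 were fitted, through UMIs that came mostly from the larger sums of the members, so no count of them is given. Mycn, which drives progenitor growth, was at 189, 680, 394 and 586 CPM in members and at 0, 0, 48.5 and 218 CPM in early neuronal cells, a log2 fold of 2.05 ± 0.63. Ccnd1 was at 504, 850, 416 and 380 CPM against 0, 318, 194 and 54.6 CPM (2.10 ± 0.64). Ccnd2 stood at 1.46 ± 0.44, Sfrp1, a secreted Wnt inhibitor that SHH induces, at 1.02 ± 0.42 (0.78 by library size alone), and Atoh1, the progenitor transcription factor, had 24 UMIs against 1. Outside the rule 2 SHH genes passed the filter, Ccnd2 at 0.81 (edgeR adjusted p = 0.280) and Sfrp1 at 0.48 (edgeR adjusted p = 0.434), both higher and neither called.

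The S phase list was also lower in early neuronal cells, and 12 of its 20 genes were fitted, again mostly through UMIs of the members. The chromatin remodeller gene Hells had 50 UMIs in members against 1, and the clamp gene Pcna 63 against 3. The S phase list summed to between 429 and 2543 CPM in early neuronal cells and to between 2458 and 3912 in members. By the rule for named genes the highest folds were those of Ccm2 (31 UMIs against 0), Hells, Zfp36l1 (42 against 1), Cdca7 (59 against 2) and Smc2 (55 against 2). No S phase gene passed the filter outside the rule, and Smc2 differed there by 0.38 ± 0.36 (edgeR adjusted p = 0.639).

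**Figure D3:**
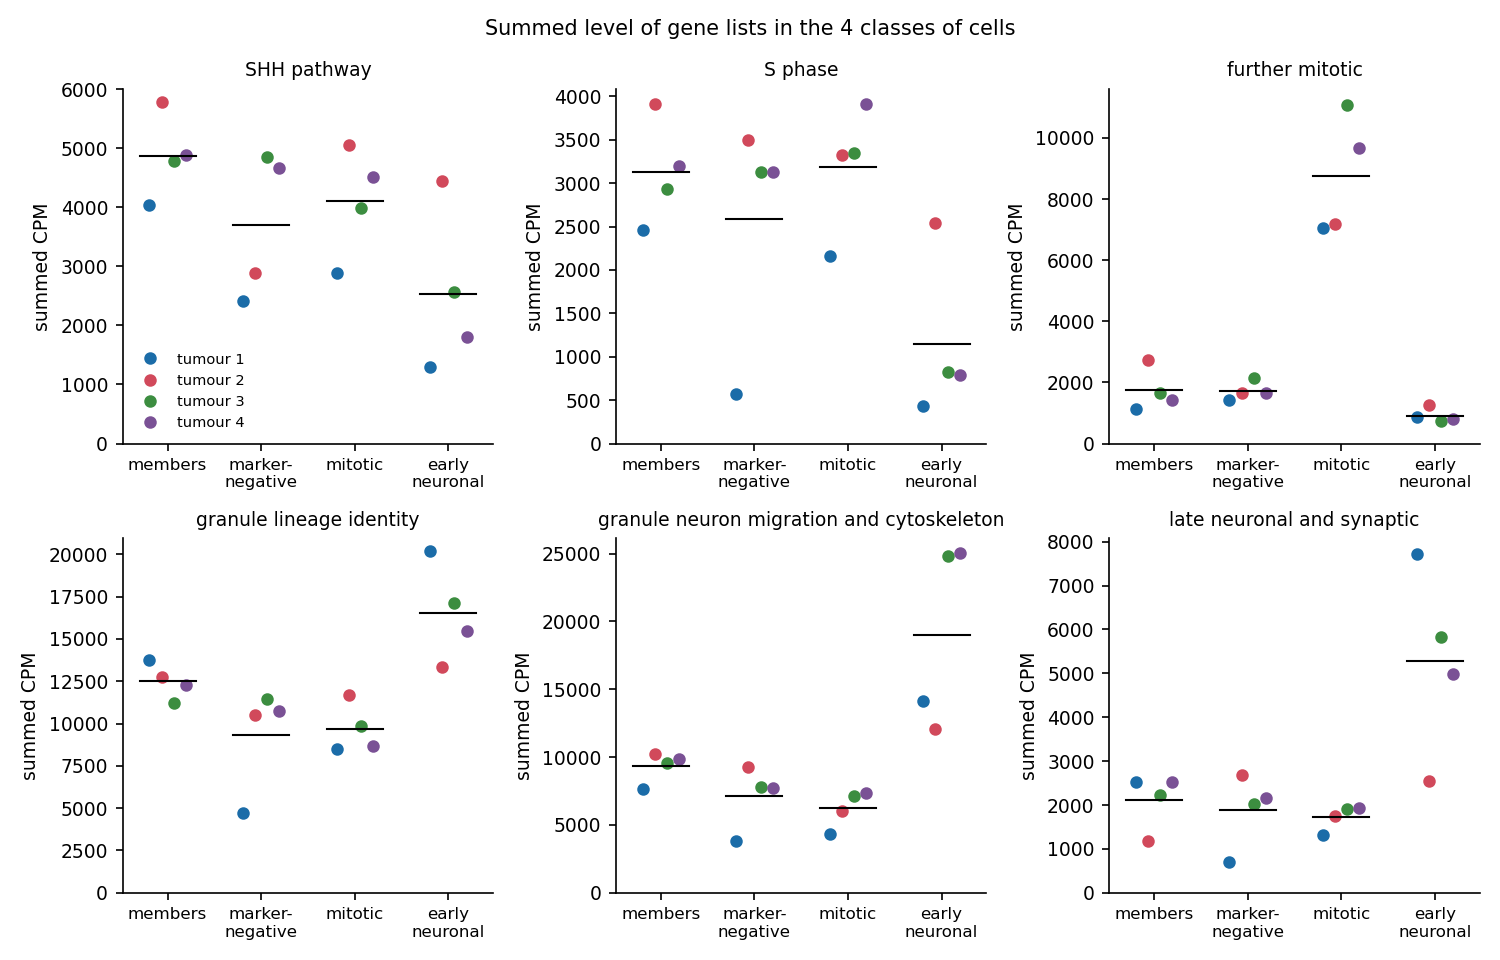
Summed level of 6 gene lists (y axes, CPM) in members, marker-negative, mitotic and early neuronal cells; points are tumours and black lines their means. In members the further mitotic list lay between 1135 and 2721 CPM, below all mitotic values, and the migration and cytoskeleton list between 7627 and 10204 CPM, below all early neuronal values. All values are before TMM scaling.

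Outside the rule 6 genes of 376 were called in the early neuronal comparison (1.60%), all lower in the marker-positive barcodes. The migration and cytoskeleton list held 3 of them, of its 11 genes fitted there. Because at least 3 early neuronal UMIs chose one class and at most 2 the other, lower levels of neuronal genes were favoured in advance. The adjusted p-values are thus no independent support for a difference. Gpm6a, a membrane glycoprotein of growing neurites, fell by 1.88 ± 0.29 (edgeR adjusted p = 0.00119), and Stmn2 by 1.21 ± 0.23 (edgeR adjusted p = 0.00786). Map1b fell by 0.91 ± 0.21 and the α-tubulin gene Tuba1a by 0.84 ± 0.20 (edgeR adjusted p = 0.0335 and 0.0393). Gap43, a growth cone protein, and Fxyd6, a regulator of the sodium pump, fell by 1.02 ± 0.25 and 1.23 ± 0.30 (edgeR adjusted p = 0.0438 for both). Gap43 was lower in 3 of 4 tumours and the other 5 in 4 of 4. Leaving out tumour 1 left 1 called gene, leaving out tumour 3 or 4 left 3 each, and leaving out tumour 2 gave 12.

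In the members themselves the fitted folds of these 6 genes were negative, but after TMM scaling Gpm6a alone was lower in 4 of 4 tumours. Gap43 (-1.90 ± 0.47) and Map1b (-1.02 ± 0.41) were higher in 2 tumours and lower in 2, and Stmn2, Fxyd6 and Tuba1a were lower in 3. Stmn2 was at 630, 850, 569 and 479 CPM in members and at 1288, 1907, 1990 and 2567 CPM in early neuronal cells, with no overlap before TMM scaling. Tuba1a was at 1450, 3061, 3129 and 3459 CPM against 4294, 2225, 10046 and 9966 CPM, so tumour 2 went the other way. Gpm6a had 22 UMIs against 46, a log2 fold of -2.33 ± 0.55. Mapt, the tau gene, which was not among the 6, had 6 against 21 (-3.23 ± 0.78). The lowest folds by the rule for named genes were those of Chd3, Mapt, Gpm6a, Kcnk1 and Ppp1r14c. Of the 17 fitted genes of the migration and cytoskeleton list 1 was counted lower (0.816% of all genes were). While 65.6% of all genes lay higher, 13 of the 17 lay lower, with a median of -0.92. Crmp1, which belongs to the same family as Dpysl4, did not, at 1.17 ± 0.55.

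**Figure D4:**
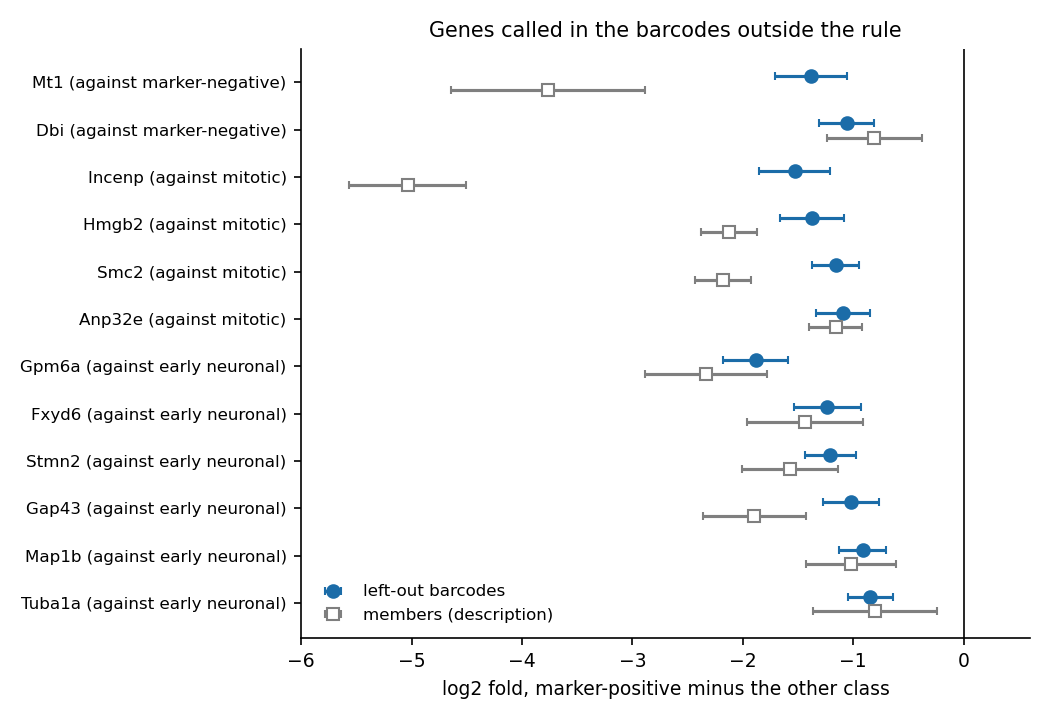
Log2 fold with SE (x axis) of the 12 genes called by edgeR in the barcodes outside the rule, marker-positive minus the class named beside each gene; filled circles are those barcodes and open squares the members, for which no test was made. All 12 folds are negative in both sets, from -1.88 to -0.84 in the barcodes outside the rule.

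Against marker-negative cells within the same limits, few genes stood apart once cells with genes of other types were left out of the latter. In all, 57 genes were counted higher (1.73% of 3291 fitted) and 14 lower (0.425%), and with every cell thinned to 500 UMIs the split was 32 higher and 38 lower. With upper quartile scaling it was 36 and 16. With cells carrying genes of other types kept in both classes 64 were higher and 135 lower, and with them left out of both 49 and 14. Without tumour 2 the count of 71 was 152 and without tumour 3 it was 127. By the rule for named genes the lowest were Apoe, the lipid carrier of glia, with 15 UMIs in members against 37 (-2.20 ± 0.59), and Sparcl1, a matrix protein of astrocytes, with 21 against 47 (-1.96 ± 0.51). The 4 highest by that rule were Ctbp2 (1.99 ± 0.91), Usp45 (1.80 ± 0.94), Ncoa7 (1.66 ± 0.95) and Wnk1 (1.58 ± 0.79), each resting on between 3 and 5 UMIs in the marker-negative cells. Outside the rule Apoe differed by -0.45 (edgeR adjusted p = 0.584) and Sparcl1 by -0.71 (edgeR adjusted p = 0.302), and the 4 highest genes did not pass the filter.

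Outside the rule 2 of 945 genes were called against marker-negative barcodes (0.212%), both lower. Dbi, an acyl-CoA binding protein abundant in glia, fell by 1.06 ± 0.25, and Mt1, a metallothionein, by 1.38 ± 0.32 (edgeR adjusted p = 0.0207 for both), each lower in 4 of 4 tumours. DESeq2 called none and 93 genes had an unadjusted edgeR p under 0.05. No gene was called without tumour 1 and 7 each without tumour 2 or 4, and by library size alone 6 were called, 4 of them higher. The gene lists for SHH, S phase and granule lineage had no call there. Some astrocyte genes were lower in members, Aqp4 having 1 UMI against 15, Gja1 1 against 11 and Gfap 1 against 5, whereas Slc1a2 had 57 UMIs against 26. Slc1a2 was the 1 gene of the astrocyte list that was fitted, at 0.31, and the part of astrocyte RNA in this contrast was not tested. The astrocyte list summed to between 197 and 630 CPM in members and to between 142 and 883 CPM in marker-negative cells. With barcodes carrying astrocyte genes left out, neither Dbi nor Mt1 was called, Dbi differing by -0.76 ± 0.27 (edgeR adjusted p = 0.219), and 7 other genes were called, all higher.

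Granule lineage genes were present in the members of every tumour. The list summed to 13741, 12755, 11203 and 12293 CPM, within or above the range of mitotic cells (8473 to 11710) and below early neuronal cells of the same tumour in 4 of 4 (20180, 13350, 17132 and 15482 CPM). Barhl1, a granule lineage homeodomain factor, was at 315, 510, 700 and 760 CPM, and Zic1 at 1387, 850, 941 and 842 CPM. Uncx, another homeodomain gene, lay higher in 4 of 4 tumours than in marker-negative cells (0.97 ± 0.44) and than in mitotic cells (0.81 ± 0.31), without reaching the 2-fold mark. Of the 17 fitted genes none was counted in any of the 3 comparisons, and none was called outside the rule. Against early neuronal cells 9 of the 17 lay higher under TMM and 2 of the 17 by library size alone, where the median went from 0.06 to -0.28.

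The partners of the marker genes were taken from 3 lists. Of the 23 genes of the cyclic nucleotide list, 5 were fitted against marker-negative cells and none was counted, with a median of 0.33. Akap9, an anchor of protein kinase A, had 134 UMIs in members and differed by 0.73 ± 0.37, and calmodulin gene Calm2 by 0.02 ± 0.34. Pde1a and Pde1b, the paralogs of Pde1c, had 1 UMI each in the 213 members. Calm2 was lower in members than in mitotic cells (-0.96 ± 0.22) and early neuronal cells (-0.93 ± 0.43), in 4 of 4 tumours each. Of the genes that act with Lhx1, the cofactor gene Ldb1 had 11 UMIs and Lmo4, which competes for it, 32, and none of the 4 fitted was counted against marker-negative cells. Lmo4 was counted lower than in mitotic cells (-1.003 ± 0.38), 1 of 4 fitted beside 3.96% of all genes. Of the receptor list 6 genes were fitted against mitotic cells, 2 above 0, with a median of -0.21. Gng2, a G protein γ subunit, was the 1 counted, higher in members (1.02 ± 0.36, beside 0.718% of all genes), and differed by 0.14 (edgeR adjusted p = 0.908) outside the rule. Against early neuronal cells 2 of 5 fitted genes of that list were counted, the G protein α subunit genes Gnai2 (1.18 ± 0.89, on 24 UMIs against 4) and Gnao1 (-1.28 ± 0.58), beside 8.19% of all genes higher and 0.816% lower.

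Genes of AMPK and mTORC1 signalling and of cell cycle exit had no common direction. Of the AMPK and mTORC1 list 4 genes were fitted against marker-negative cells and none was counted. Against mitotic cells 2 of its 9 fitted genes lay above 0, with a median of -0.34, and 1 was counted (beside 3.96% of all genes lower), Eif4ebp1, a translation repressor that mTORC1 inactivates, which was lower (-1.47 ± 0.68). Stk11, the kinase that activates AMPK, had 42 UMIs in members and was counted higher than in early neuronal cells (1.73 ± 0.83), where it had 5 UMIs, 1 of 4 fitted genes beside 8.19% of all. Ddit4, an mTORC1 inhibitor, differed from mitotic cells by 2.01 ± 0.64, higher in 3 of 4 tumours. Cdkn1b, the inhibitor that granule progenitors raise on leaving the cycle, was at 189, 170, 328 and 611 CPM in members, with a fold of -0.03 ± 0.40 against marker-negative and -0.22 ± 0.27 against mitotic cells. Tob1, an antiproliferative gene, differed from mitotic cells by 1.47 ± 0.48, higher in 2 tumours and lower in 1.

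Marker lists of other cell types were present in the members at low counts. The astrocyte list had 71 UMIs, the oligodendrocyte list 50, the unipolar brush list 28, the Purkinje list 18 and the microglial list 11. As means over tumours these were 395, 276, 174, 156 and 165 CPM, beside 552, 1135, 193, 130 and 221 CPM in all filtered cells. The Purkinje list alone had the higher mean in members. That mean rested on 18 UMIs and ranged from 65.6 to 315 CPM over tumours, around the 130 of the filtered cells, so no excess is read from it. Otx2 supplied 26 of the unipolar brush UMIs and Foxp2 9 of the Purkinje UMIs, while Eomes, Calb1, Sox10, Mog and P2ry12 were at 0. Of the 213 members, 6 had at least 2 genes of the microglial, endothelial, mural or oligodendrocyte lists, and 6, all in tumour 4, had at least 2 of the astrocyte list. Endothelial UMIs were 52, and Flt1 (14 UMIs) and Cldn5 (3 UMIs) came from 1 member each. Photoreceptor genes, among which Abca4 is known, summed to 3 UMIs, but only 2 of the 10 listed genes were in the deposited counts. The Purkinje list had 7 of its 9 genes there, the unipolar brush list 4 of 6 and the interneuron list 2 of 7. Low sums of these lists therefore do not show that such transcripts were absent. Pvalb, a calcium-binding protein of interneurons, had 28 UMIs in 9.86% of members and in 5.20% of all filtered cells. No barcode sequence was shared by members of different tumours, and 1 was shared by any barcodes of tumours 2 and 4. Scrublet called 45 of the filtered cells as doublets, 3 of them members, and without those barcodes the mean share of members was 7.68%.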

How the data were processed

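The deposited tables hold whole-number UMI counts per gene and barcode with no normalization, made by the authors from papain-dissociated tumours with Drop-seq, per the labels' protocols. The submitters' processing notes name STAR and mm10, and the counter, annotation and barcode filter are not given in the sources used here. Total counts were 965247, 1408505, 666213 and 1451644 UMIs over 1309, 2828, 952 and 1645 barcodes, and 15002 genes were read. Another 6 tables, with 11203 cell columns that could not be tied to a sample by their labels, were left out.

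The members, the gene lists and the comparisons were chosen with earlier results of these data known. The left-out state comparisons and the astrocyte, tumour-pair and library-size alternatives were chosen after seeing the data. The UMIs of each class were added up within a tumour, so the tumour and not the cell is the replicate. The labels do not say more of the tumours than their number, so p-values measure the spread between these 4 libraries. edgeR 4.0.16 (R 4.3.3, TMM, quasi-likelihood) was fitted with the tumour as a block, because both sums of a comparison come from 1 animal; their deviations correlated in every tumour (r from 0.15 to 0.67). Member fits kept genes with at least 20 UMIs in all and give no p-value; left-out fits used filterByExpr and Benjamini-Hochberg adjustment at 0.05 over all genes tested. The SE is the log2 fold over the square root of F. Mitochondrial, ribosomal RNA, predicted (Gm) and rule genes were left out of counts of genes. Left-out mitotic barcodes needed 2 mitotic UMIs. Named genes were, among those with the same sign in 4 of 4 tumours and a mean of at least 100 CPM, the 10 highest and 10 lowest folds against marker-negative cells and the 5 and 5 against the other classes. Intervals are at 95%; those on shares cover counting error only, and those on log2 folds come from edgeR's SE, and thinning was to 500 UMIs. Scrublet (scanpy 1.11.5) used an expected share of 6%, exact neighbours and a score threshold of 0.25, because its automatic calls varied between runs.

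Tested on simulated data, the left-out step recovered 100% of the 4-fold changes that passed its filter in each comparison. Of 2-fold rises and falls that passed it recovered 46.9% and 52.4% (marker-negative, 913 genes), 53.2% and 66.7% (mitotic, 773 genes) and 30% and 76.9% (early neuronal, 366 genes), with 4.63%, 6.25% and 10.3% of calls false. In the same order, 50, 49 and 49 of the planted 4-fold rises passed, but only 19, 15 and 7 of equally many 4-fold falls. Recovery over all planted changes was therefore lower. Changes were planted only in genes with at least 100 UMIs, equal in every tumour and at a fixed dispersion.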

Additional observations from a re-analysis of the deposited data

Results flagged for a closer look

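In 4 samples, a value was singled out where its gap to the nearest of the others as a ratio to the whole range exceeded Dixon's 95% limit; 40 values were examined and chance singles out about 1 in 20. Abca4 in all filtered cells stood at 102 CPM in tumour 1 and at 0 in the others, a ratio of 1, and came from 1 barcode. In members, the microglial list was at 510 CPM in tumour 2 (3 UMIs), with a ratio of 0.954, and the endothelial list at 413 CPM in tumour 4 (50 UMIs), with a ratio of 0.894. The choroid plexus and ependyma list was at 66.0 CPM in tumour 4 and at 0 elsewhere, a ratio of 1. The Notch list was at 189 CPM in tumour 1 against 510, 503 and 561 CPM in tumours 2 to 4, a ratio of 0.844.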

How the results depend on the processing

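The mean share of members was 12.04% with 1 marker UMI, 26.3% without the early neuronal and synaptic limits and 6.11 to 9.22% with 1 tumour left out, and was within 1 SD of 7.61% under the other alternatives. Where tumours are left out of the counts below, the same direction was required only in those that remained, a looser criterion than 4 of 4, so both the tumours and the criterion differ. The cause of the other differences was not tested. Against marker-negative cells 71 genes were counted, 109 with DESeq2, 159 with no filter, 199 with cells carrying genes of other types in both classes, 222 in tumours 3 and 4 only and 64 to 152 with 1 tumour left out. Against mitotic cells the 228 became 578 in tumours 3 and 4 only and 243 to 370 with 1 tumour left out. Against early neuronal cells the 254 became 463 with no filter, 111 with members of at least 3 marker UMIs, 164 with thinned cells, 546 in tumours 3 and 4 only and 137 to 391 with 1 tumour left out.

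Outside the rule, the 2 calls against marker-negative barcodes became 0 with DESeq2, 6 by library size alone, 16 with no filter, 9 with at least 2 marker UMIs, 0 under 500 UMIs only, 7 without astrocyte-list barcodes, 9 in tumours 1 and 2 only, 0 in tumours 3 and 4 only and 0 to 7 with 1 tumour left out. The 4 calls against mitotic barcodes became 20 with no filter, 17 under 500 UMIs only, 17 in barcodes over 10% mitochondrial UMIs, 22 in tumours 1 and 2 only and 1 to 12 with 1 tumour left out. The 6 calls against early neuronal barcodes became 15 with no filter, all higher, 0 over 10% mitochondrial UMIs, 0 in tumours 3 and 4 only and 1 to 12 with 1 tumour left out. The state comparisons gave 34 (early neuronal) and 30 (mitotic) calls with DESeq2, and 3 to 90 and 19 to 99 with 1 tumour left out.

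Without the replicate block, that is without the pairing of sums by tumour, calls fell to 0, 0 and 1 in the 3 marker comparisons and to 0 and 3 in the state comparisons, from 89 and 79. The 2 folds that changed sign were those of Tuba1a and Rnf5: Tuba1a against early neuronal barcodes was 0.93 in barcodes over 10% mitochondrial UMIs, and Rnf5 against marker-negative cells was 0.00325 with thinned cells. For single genes, 140 of the values outside the rule lost a call and 26 gained one. Depth limits the filtered classes of tumours 1 and 2 most, and outside the rule the marker-positive and mitotic sums of tumours 3 and 4.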
